A study of Mus musculus with 4 samples.

Results

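Ighg1, Ighg2b, Ighg2c and Ighg3 encode the constant regions of the heavy chains of the mouse IgG subclasses IgG1, IgG2b, IgG2c and IgG3. They were taken by name from the 31053 genes of the count matrices, 4 genes in all, and followed cell by cell through the clusters of the authors' cell table. A B cell first makes IgM and IgD from Ighm and Ighd. Class switch recombination later joins the rearranged variable exon to a constant gene further downstream and deletes the DNA between, so a switched cell reads 1 IgG, IgE or IgA gene from that chromosome. In mouse B cells IL-4 is known to direct switching to IgG1 and TGF-beta to IgG2b and IgA, while interferon-gamma favours IgG2a or IgG2c. Each constant gene also gives a germline transcript before it recombines, and Peyer's patches are known as a site of switching to IgA.

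CD45+ leukocytes came from the Peyer's patches, lymphoid tissue in the wall of the small bowel, of female wild-type Taconic mice. The mice carried segmented filamentous bacteria, a commensal that clings to the ileum (SFB-positive), or were free of them (SFB-negative), and the labels give no other difference between the groups. Each group had 2 droplet libraries, and the design text says that Peyer's patches of 5 mice per group were pooled. The labels do not say whether replicates 1 and 2 came from separate pools, so p-values measure at most the spread between libraries.

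A value is a count of UMIs, the molecular tags that mark single captured RNA molecules. SFB-positive replicates 1 and 2 held 6979187 and 83600989 UMIs, and SFB-negative replicates 1 and 2 held 7198366 and 47273320. The replicate number marked a technical batch: replicate 1 libraries were shallow and carried 15 antibody tags, replicate 2 libraries were deep and carried none, and the Cell Ranger version differed. Values are therefore given library by library, with differences within a replicate number and adjusted p-values from a model with the number as a term (the replicate block) beside those without it. Libraries of the same replicate number shared 30 and 40 barcodes, and all other pairs shared at most 1.

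The 4 genes lie in a row on chromosome 12 (GRCm38, minus strand, GENCODE M21), in the order Ighg3 (113356224 to 113361232), Ighg1 (113325240 to 113330523), Ighg2b (113302965 to 113307933) and Ighg2c (113285325 to 113288932), downstream of Ighm and Ighd and upstream of Ighe and Igha. The subclasses differ most visibly in the hinge, a separate short exon whose cysteines join the heavy chains. The hinge exons from the GENCODE M21 transcripts are shown 5′ to 3′, with in-frame cysteine codons in capitals. Whether the counted reads cover these exons was not tested.
Ighg1 hinge (chr12:113329844-113329882): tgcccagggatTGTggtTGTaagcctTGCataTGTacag
Ighg2b hinge (chr12:113307261-113307326): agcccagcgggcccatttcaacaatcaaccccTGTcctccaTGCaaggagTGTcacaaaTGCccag
Ighg2c hinge (chr12:113288263-113288325): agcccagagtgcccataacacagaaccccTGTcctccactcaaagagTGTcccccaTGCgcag
Ighg3 hinge (chr12:113360529-113360576): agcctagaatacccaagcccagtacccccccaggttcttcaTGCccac
Ighg1 and Ighg2b carried 4 hinge cysteines, Ighg2c carried 3 and Ighg3 carried 1. In the coding sequence of the secreted form Ighg2b and Ighg2c were the closest pair, with 85.9% identity over 1010 aligned columns. They had 77.3% identity in the hinge, and the other pairs had 74.4% to 77.0% over the same coding sequence. In the secreted transcripts Ighg2b and Ighg2c were also the only pair to share any 50-base stretch. This was 56 of the 1065 such windows of Ighg2b, and no window of 90 bases was shared. A read inside such a stretch cannot be told between Ighg2b and Ighg2c, so small Ighg2c counts beside large Ighg2b counts are uncertain. The exons of the membrane form were not compared, so stretches shared there by any of the genes were not tested.

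Over all 31885 barcodes Ighg2b was the most abundant IgG transcript, with 117839 UMIs in 2782 cells. Ighg1 had 17119 UMIs in 1850 cells and Ighg3 had 10266 UMIs in 432 cells. Ighg2c had 47 UMIs in 17 cells. Of 22569 cells in the authors' table, 2120 held Ighg2b, 1267 held Ighg1, 329 held Ighg3 and 12 held Ighg2c.

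Across the table as a whole the SFB groups differed in which IgG gene they held. Ighg2b stood at 1729 and 1620 CPM (UMIs of the gene scaled to the summed UMIs of the same cells) in SFB-positive libraries, against 37.9 and 50.6 CPM in SFB-negative libraries. The groups did not overlap, and the share of all genes whose groups do not overlap was not counted. Ighg2b made up 88.0 ± 3.90% of IgG UMIs in SFB-positive and 21.8 ± 0.280% in SFB-negative libraries (SD, n = 2 each), and Ighg1 made up 7.57 ± 1.88% and 74.2 ± 2.46%. Both differences kept their sign within each replicate number (69.1 and 63.2 percentage points for Ighg2b, -67.0 and -66.2 for Ighg1), and the exact two-sided permutation p was 0.333, the smallest that 2 against 2 libraries can give. Ighg1 itself was at 169 and 119 CPM in SFB-positive libraries, against 133 and 166 CPM in SFB-negative libraries, which overlap.

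The count test gave a log2 difference, SFB-positive minus SFB-negative, of 5.10 ± 0.70 (SE) for Ighg2b in all table cells. The unadjusted p was 8.26e-04 and the edgeR adjusted p was 1.00 without the replicate block, with adjusted p-values from 3.35e-14 (DESeq2) to 1.00 over the alternatives without it. With it the difference was 5.08 ± 0.40 and the adjusted p was 9.74e-33, and Ighg2b rose. Ighg3 rose with the block (2.54 ± 0.29, adjusted p = 7.78e-16), but not without it (2.97, adjusted p = 1.00), and 4437 of the 9609 Ighg3 UMIs of SFB-positive replicate 2 were in 1 cell; without that replicate the difference was -0.52, with no block. Ighg1 differed by -0.25 ± 0.26 with the block (adjusted p = 0.866) and by -0.17 ± 0.57 without it (adjusted p = 1.00). A single SFB-positive cell held 5813 of the 7071 Ighg1 UMIs of its library, and without the top Ighg1 cell of each library Ighg1 fell by 1.83 with the block (adjusted p = 2.59e-09), a setting added after the data were seen. Without the block none of 12268 genes was called (0%, with 12 at an unadjusted p under 0.05), and with it 3.61% were (0.929% higher, 2.68% lower). The block fit takes a gene's spread almost wholly from all genes together, so its very small p-values do not measure that gene's own spread.

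IgG UMIs were spread unevenly over the authors' clusters. Cluster 6 held 76.7% and 91.4% of the table's IgG UMIs in SFB-positive libraries, against 0.361% and 50.8% in SFB-negative libraries. Cluster 3 held 18.8% and 6.18% in SFB-positive libraries, against 91.9% and 39.1% in SFB-negative libraries. Cluster 6 was plasma-like: all 10 plasma markers were above the mean of the other clusters, with Jchain, Prg2 and Slpi among its 10 leading genes. Cluster 3 was germinal-centre-like, the dividing B cells that mutate and switch antibody genes, with all 11 germinal-centre markers above the mean of the other clusters, as in cluster 5, and cell-cycle genes such as Birc5 and Ccna2 leading. Cluster 4 is called by its number; Ccr1, Fcrl5 and Cd80 were among its leading genes, and 5 of 7 memory and 5 of 6 marginal-zone or innate-like markers stood above the mean of the other clusters.

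Free RNA in the droplets was read from T-like barcodes, which lie outside the table, held T-cell receptor or CD3 UMIs and held none of 4 B-cell genes. Ighg2b was found in 14 of 245 (5.71%) and 118 of 971 (12.2%) T-like barcodes of SFB-positive libraries, against 0 of 223 and 2 of 732 (0.273%) of SFB-negative libraries. A count of 0 of 223 allows a share of up to 1.35%. Ighg1 was found in 2 (0.816%) and 5 (0.515%) T-like barcodes of SFB-positive libraries, against 0 and 24 (3.28%) of SFB-negative libraries. T-like Ighg2b was thus high in both SFB-positive libraries, and T-like Ighg1 was highest in SFB-negative replicate 2.

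In cluster 0, the largest cluster, with the naive follicular gene Ighd among its leading genes, 7.43% and 11.6% of cells held Ighg2b in SFB-positive libraries, against 0.371% and 0.453% in SFB-negative libraries. Of the SFB-positive shares, that of replicate 2 was below the T-like share of its library and that of replicate 1 above it, at median depths of 1416 and 6499 UMIs per T-like barcode in SFB-positive libraries, against 1585 and 3521 in SFB-negative libraries. With every cell thinned to 500 UMIs, cluster 0 held Ighg2b in 3.04% and 1.63% of cells of SFB-positive libraries, where T-like barcodes held it in 1.63% and 0.927%. With the replicate block Ighg2b was higher in cluster 0 of SFB-positive libraries by 3.51 ± 0.30 on the log2 scale (adjusted p = 9.35e-28; 2.16% of genes called there). Clusters 1 and 2, where 0.981% and 1.14% of genes were called with the block (0.851% and 0.886% lower), gave Ighg2b in 7.94% to 16.9% of SFB-positive and 0.367% to 0.930% of SFB-negative cells. IgG was dominant in few cells of clusters 0 to 2, at most 9 of 754 in a library (cluster 2 of SFB-positive replicate 2). T-like barcodes moved in the same direction, and the part of free RNA in these differences was not tested. Ighg1 in clusters 0 to 2 was in 0.353% to 1.15% of cells of SFB-positive libraries, against 0.550% to 3.52% of SFB-negative libraries. Its log2 difference with the replicate block was -2.23 ± 0.39 in cluster 0 (edgeR adjusted p = 7.70e-06). It was -2.02 ± 0.46 in cluster 1 (adjusted p = 0.0340) and -1.85 ± 0.56 in cluster 2 (adjusted p = 0.0767). Without the block no gene was called in these clusters. The part of free RNA in the Ighg1 differences was not tested either.

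**Figure D1:**
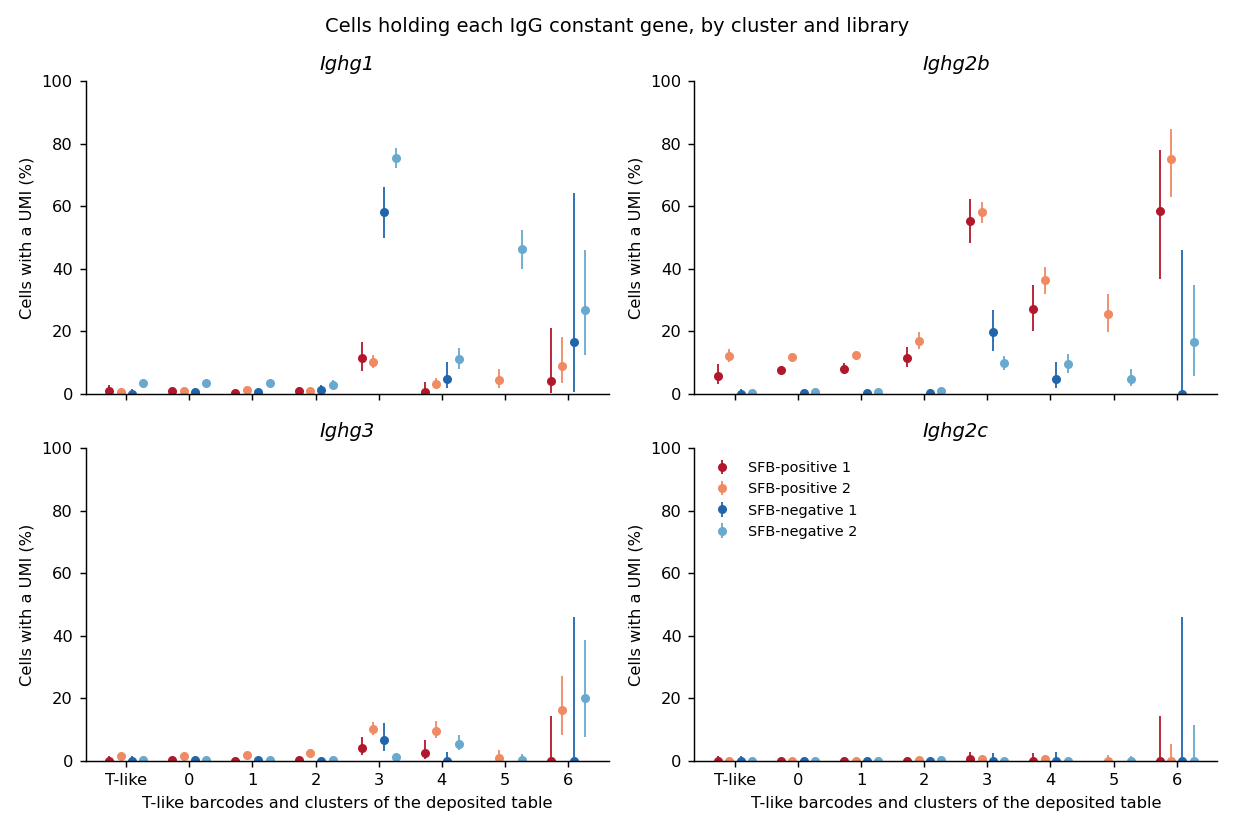
Share of cells with at least 1 UMI of each IgG gene (y axis, percent) in T-like barcodes and in clusters 0 to 6 (x axis), 1 point per library with its 95% exact binomial interval, which covers counting error only; points of fewer than 5 cells are left out. In cluster 3 the SFB-negative libraries are high for Ighg1 (58.1% and 75.4%) and the SFB-positive libraries for Ighg2b (55.2% and 58.1%).

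In the germinal-centre-like cells of cluster 3 (203 and 830 cells in SFB-positive, 148 and 719 in SFB-negative libraries) the prevailing IgG gene was Ighg2b in SFB-positive and Ighg1 in SFB-negative libraries. Ighg1 was found in 23 (11.3%) and 84 (10.1%) cells of SFB-positive libraries, against 86 (58.1%) and 542 (75.4%) cells of SFB-negative libraries. Ighg2b was found in 112 (55.2%) and 482 (58.1%) cells of SFB-positive libraries, against 29 (19.6%) and 70 (9.74%) of SFB-negative libraries. Neither gene's groups overlapped, though the share of all genes for which that holds was not counted. All 8 shares stood above those of the T-like barcodes of the same library. Median depth in cluster 3 was 4144 and 17122 UMIs per cell in SFB-positive libraries, against 4184.5 and 7359 in SFB-negative libraries. With every cell thinned to 500 UMIs, which left out no cell, Ighg1 was in 6.90% and 2.65% of SFB-positive cells, against 34.5% and 19.9% of SFB-negative cells, and Ighg2b in 22.2% and 13.9% against 7.43% and 2.23%. The groups kept their order for both genes at that depth, at which Ighg2b was in 4 of 245 and 9 of 971 T-like barcodes of SFB-positive libraries, against 0 of 223 and 0 of 732 of SFB-negative libraries.

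The make-up of the IgG UMIs gave the same split. Ighg2b was 68.3% and 80.8% of the IgG UMIs of cluster 3 in SFB-positive libraries, against 19.5% and 9.01% in SFB-negative libraries. Ighg1 was 30.7% and 15.4% in SFB-positive libraries, against 78.3% and 90.7% in SFB-negative libraries. The mean difference was 60.3 percentage points for Ighg2b (48.8 and 71.8 within replicate numbers 1 and 2) and -61.4 for Ighg1 (-47.6 and -75.3), each with an exact two-sided permutation p of 0.333.

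As levels, Ighg2b stood at 1541 and 382 CPM in cluster 3 of SFB-positive libraries, against 292 and 45.2 CPM in SFB-negative libraries. Ighg1 stood at 694 and 72.9 CPM in SFB-positive libraries, against 1171 and 455 CPM in SFB-negative libraries, so the Ighg1 levels overlap between groups. In SFB-positive replicate 1 a single cell held 525 of 657 Ighg1 UMIs and another held 764 of 1460 Ighg2b UMIs. With the replicate block Ighg2b rose by 2.64 ± 0.37 on the log2 scale (adjusted p = 2.05e-09) while the Ighg1 level dropped by 1.80 ± 0.39 (adjusted p = 7.16e-04), in a fit that called 1.35% of 9876 genes (0.375% higher, 0.972% lower). Without the block the differences were 2.52 ± 1.12 and -1.09 ± 1.11, the adjusted p was 1.00 for both and no gene was called (0%, with 12 genes at an unadjusted p under 0.05). Without the top cell of the gene in each library, Ighg1 differed by -2.96 and Ighg2b by 2.26 with the block (adjusted p = 2.52e-13 and 4.84e-08). In such sums fewer cells with a transcript and less transcript per cell cannot be told apart.

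Ighg3 was sparse in cluster 3, with 16 and 253 UMIs in SFB-positive libraries, against 22 and 9 in SFB-negative libraries. It was found in 8 (3.94%) and 84 (10.1%) cells of SFB-positive libraries, against 10 (6.76%) and 8 (1.11%) of SFB-negative libraries, which overlap. The log2 difference was 1.30 ± 0.46 with the block (adjusted p = 0.176) and 0.11 ± 1.23 without it (adjusted p = 1.00). Ighg2c had 4 and 13 UMIs in SFB-positive libraries and none in 148 and 719 cells of SFB-negative libraries, and did not pass the filter on low counts.

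Per cell, most IgG-bearing cells of cluster 3 held few molecules. Among cells with the gene, the median was 5 and 8 Ighg1 UMIs in SFB-positive libraries, against 9 and 4 in SFB-negative libraries. The median for Ighg2b was 4 and 7 UMIs in SFB-positive libraries, against 5 and 3 in SFB-negative libraries. Of the 482 Ighg2b cells of SFB-positive replicate 2, 99 held 1 UMI, 36 held 2, 149 held 3 to 9 and 198 held 10 to 99. Of the 542 Ighg1 cells of SFB-negative replicate 2, 99 held 1 UMI, 68 held 2, 315 held 3 to 9 and 60 held 10 to 99. No cell of these 2 libraries held 100 or more of either gene.

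To assign a cell, its UMIs over the 8 heavy-chain constant genes were added up, and a cell with at least 3 of them was called dominant for the gene that held more than 50% (Ighm counted with Ighd). In cluster 3, 190 and 812 SFB-positive and 143 and 588 SFB-negative cells reached that minimum. Ighg1 was dominant in 14 (7.37%) and 45 (5.54%) cells of SFB-positive libraries, against 62 (43.4%) and 328 (55.8%) of SFB-negative libraries. Ighg2b was dominant in 56 (29.5%) and 197 (24.3%) cells of SFB-positive libraries, against 11 (7.69%) and 30 (5.10%) of SFB-negative libraries. Ighg3 was dominant in 2 cells and Ighg2c in 1, all in SFB-positive replicate 2. Counted together, the IgG genes were dominant in 34.2 ± 4.48% of SFB-positive and 57.9 ± 6.67% of SFB-negative cells (SD, n = 2 each; exact two-sided permutation p = 0.333), and Igha in 61 and 375 SFB-positive and 15 and 35 SFB-negative cells.

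**Figure D2:**
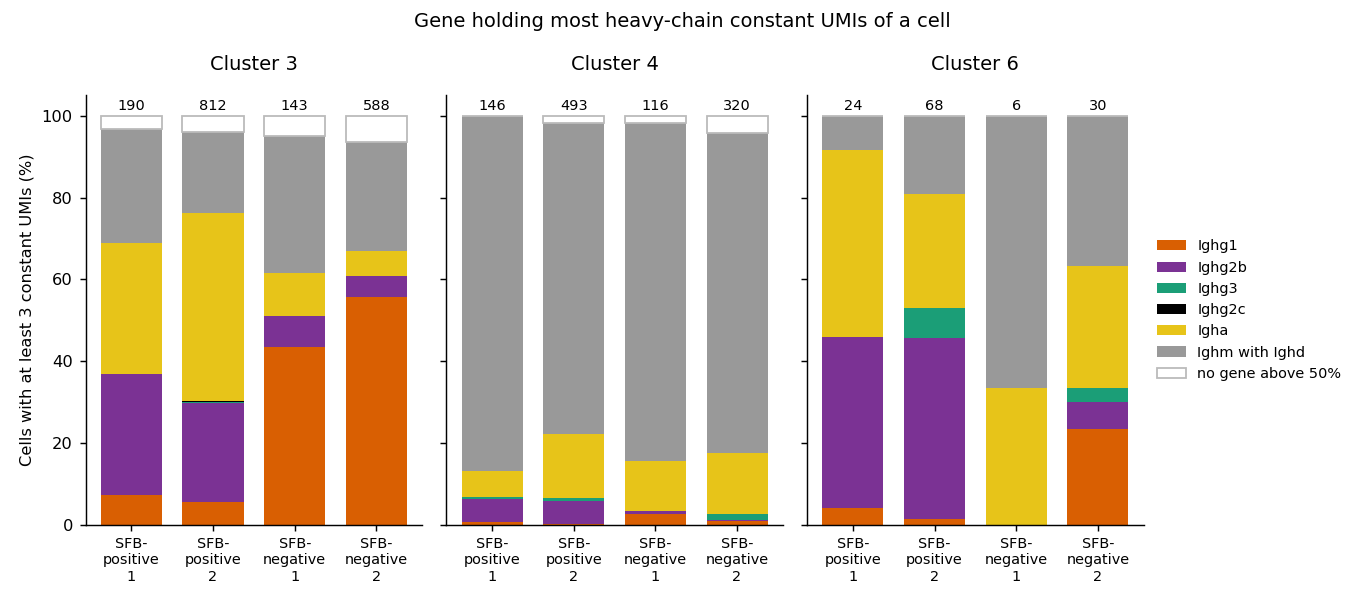
Share of cells with at least 3 heavy-chain constant UMIs (y axis, percent) by the gene that holds over 50% of them, 1 bar per library in clusters 3, 4 and 6; the number above a bar is the number of such cells. Ighg2b takes 29.5% and 24.3% of cluster 3 cells in SFB-positive libraries and Ighg1 takes 43.4% and 55.8% in SFB-negative libraries.

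How much of a cell's constant UMIs the dominant gene held differed between libraries. The median share of the dominant gene was 68.2% and 76.5% in Ighg1-dominant cells of SFB-positive libraries, against 92.9% and 100% in SFB-negative libraries. In Ighg2b-dominant cells it was 89.8% and 89.7% in SFB-positive libraries, against 69.2% and 77.5% in SFB-negative libraries. Each gene was thus purest in the libraries where it prevailed. Ighm was still found in 35.7% and 31.1% of Ighg1-dominant cells of SFB-positive libraries, against 35.5% and 26.8% in SFB-negative libraries, and in 21.4% and 24.4% of Ighg2b-dominant cells of SFB-positive libraries, against 36.4% and 16.7% in SFB-negative libraries.

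At full depth and 1 UMI or more, co-detection of Ighg1 with Ighg2b in cluster 3 lay near the overall share of Ighg2b in SFB-positive libraries. Of cells with Ighg1, 15 of 23 (65.2%) and 50 of 84 (59.5%) also held Ighg2b in SFB-positive libraries, against 11 of 86 (12.8%) and 41 of 542 (7.56%) in SFB-negative libraries. The share of all cluster 3 cells with Ighg2b was 55.2% and 58.1% in SFB-positive libraries, against 19.6% and 9.74% in SFB-negative libraries. With at least 3 UMIs of each gene required, 46 of 533 Ighg1 cells over the 4 libraries also held Ighg2b. Most of these 533 cells were from SFB-negative libraries. The share with Ighg2b was higher in both SFB-positive libraries than in either SFB-negative library, so the pooled share does not stand for either group. Igha was held by 25 of the 533 cells. At the same minimum 177 of 482 Ighg2b cells also held Igha; Igha was more common in SFB-positive libraries, as was Ighg2b, and the difference was not tested. At 500 UMIs per cell, 2 of 14 and 0 of 22 Ighg1 cells held Ighg2b in SFB-positive libraries, against 1 of 51 and 1 of 143 in SFB-negative libraries. At that depth Ighg2b was in 22.2% and 13.9% of all cluster 3 cells of SFB-positive libraries, against 7.43% and 2.23% of SFB-negative libraries. Ighg1 cells thus held Ighg2b less often than the cluster in every library at that depth, on few cells with both. Doublets were not removed here and were not tested as a part of these pairs.

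**Figure D3:**
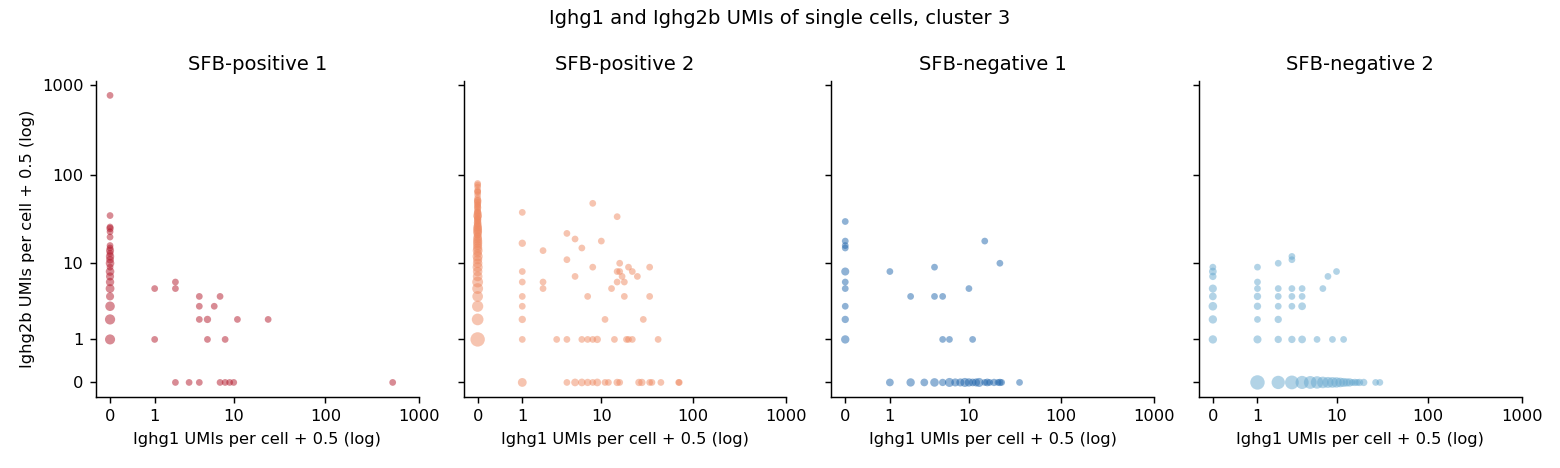
Ighg1 UMIs (x axis) against Ighg2b UMIs (y axis) of single cells of cluster 3 with either gene, both plus 0.5 on a log axis, 1 panel per library; a larger point stands for more cells with the same pair of counts. Most cells lie on an axis, at 0 of the other gene, along the Ighg2b axis in SFB-positive and along the Ighg1 axis in SFB-negative libraries.

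Most Ighg3 cells of cluster 3 also held Ighm. Of cluster 3 cells with Ighg3, 8 of 8 and 63 of 84 (75.0%) also held Ighm in SFB-positive libraries, against 10 of 10 and 6 of 8 in SFB-negative libraries. Ighm was in 42.4% and 42.8% of all cluster 3 cells of SFB-positive libraries, against 56.8% and 43.8% of SFB-negative libraries, so the share among Ighg3 cells was above the cluster's in every library. Ighg1 cells held Ighm in 39.1% and 34.5% of SFB-positive cases, against 39.5% and 38.2% of SFB-negative cases. With at least 3 UMIs of each gene over the 4 libraries, 22 of 31 Ighg3 cells held Ighm. This compared with 104 of 533 Ighg1 cells and 81 of 482 Ighg2b cells. Igha was held by 16 of 31 Ighg3 cells at that minimum, against 25 of 533 Ighg1 cells and 177 of 482 Ighg2b cells. A high share was thus not particular to Ighm, and Ighg3 cells with 1 UMI or more came mostly from SFB-positive replicate 2. Ighg3 is the first IgG gene downstream of Ighm and Ighd, and the counts do not tell a germline transcript or a transcript read through from one of a switched gene. These shares are a description of 4 libraries with no test.

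In cluster 4 Ighg2b was found in 41 of 152 (27.0%) and 180 of 497 (36.2%) cells of SFB-positive libraries, against 6 of 124 (4.84%) and 35 of 374 (9.36%) of SFB-negative libraries. These groups do not overlap, and the share of all genes for which that holds was not counted. T-like barcodes, at 5.71% and 12.2% in SFB-positive libraries against 0% and 0.273% in SFB-negative libraries, moved in the same direction, and the part of free RNA in the difference was not tested. At 500 UMIs per cell the cluster 4 shares were 13.2% and 4.02% in SFB-positive libraries, against 2.42% and 1.34% in SFB-negative libraries, each above the T-like share of its library at that depth. At least 2 UMIs were held by 20 and 103 cells of SFB-positive libraries, against 6 and 15 of SFB-negative libraries. Ighg2b stood at 277 and 154 CPM in SFB-positive libraries, against 56.6 and 30.0 CPM in SFB-negative libraries. Ighg1 was found in 1 (0.658%) and 16 (3.22%) cells of SFB-positive libraries, against 6 (4.84%) and 41 (10.96%) of SFB-negative libraries, with 3 and 54 UMIs in SFB-positive libraries, against 10 and 64 in SFB-negative libraries; the share in SFB-positive replicate 1 was below its T-like share of 0.816%. With the replicate block Ighg2b rose by 2.15 ± 0.30 on the log2 scale (adjusted p = 1.09e-09), Ighg1 dropped by 1.94 ± 0.38 (adjusted p = 1.44e-04) and Ighg3 rose by 1.73 ± 0.36 (adjusted p = 2.79e-04), in a fit that called 1.53% of 8500 genes (0.282% higher, 1.25% lower). Without the block they were 2.27 ± 0.78, -2.002 ± 0.71 and 1.92 ± 1.02, each with an adjusted p of 1.00 and with no gene called (0%, 16 at an unadjusted p under 0.05). Ighg3 in cluster 4 rested on few cells: 245 of the 364 UMIs of SFB-positive replicate 2 were in 1 cell, with 13 UMIs in SFB-positive replicate 1 and 0 and 40 in the SFB-negative libraries. Without the top Ighg3 cell of each library the difference with the block was 0.31 (adjusted p = 0.882), so the call for Ighg3 ended.

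Few cluster 4 cells were dominant for an IgG gene. There were 10 of 146 (6.85%) and 36 of 493 (7.30%) in SFB-positive libraries, against 5 of 116 (4.31%) and 9 of 320 (2.81%) in SFB-negative libraries. Of these, 8 and 27 were Ighg2b-dominant in SFB-positive libraries, against 1 and 1 in SFB-negative libraries. Ighm or Ighd prevailed in 76.1% to 87.0% of cells in every library.

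The plasma-like cells of cluster 6 held IgG at the highest level per cell. There were 24 and 68 of them in SFB-positive libraries, against 6 and 30 in SFB-negative libraries, too few for the count test. Ighg2b came to 8379 UMIs in 14 cells and 88767 UMIs in 51 cells of SFB-positive libraries, against 0 UMIs and 1221 UMIs in 5 cells of SFB-negative libraries. At least 100 Ighg2b UMIs were held by 8 and 31 cells of SFB-positive libraries, against 0 and 1 of SFB-negative libraries. Ighg2b was dominant in 10 (41.7%) and 30 (44.1%) cells of SFB-positive libraries, against 0 of 6 and 2 of 30 (6.67%) cells of SFB-negative libraries; with 6 cells a count of 0 allows a share of up to 50%. In these Ighg2b-dominant cells of SFB-positive libraries the median was 831.5 and 2239 constant UMIs, of which Ighg2b held a median 99.6% in both.

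Ighg1 and Ighg3 plasma-like cells were few. Ighg1 was dominant in 1 and 1 cells of SFB-positive libraries, against 0 and 7 of SFB-negative libraries. The SFB-positive cells held 331 and 5813 Ighg1 UMIs, and the 7 cells of SFB-negative replicate 2 held a median of 82 and at most 1146. Ighg3 was dominant in 5 cells of SFB-positive replicate 2, with up to 4437 UMIs in a cell, and in 1 cell of SFB-negative replicate 2 with 314 UMIs. No UMI of Ighg2c was found in cluster 6.

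Cluster 5, with histone genes leading and cells almost only in the replicate 2 libraries (209 in SFB-positive, 258 in SFB-negative), showed the split of cluster 3 at low depth. Ighg2b was in 53 (25.4%) cells of SFB-positive replicate 2, against 12 (4.65%) of SFB-negative replicate 2. Ighg1 was in 9 (4.31%) cells of SFB-positive replicate 2, against 119 (46.1%) of SFB-negative replicate 2. With 1 library a group there is no replicate check.

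The 17 cells with Ighg2c comprised 15 from SFB-positive and 2 from SFB-negative libraries. In 12 of them Ighg2c had 1 UMI, and 12 also held Ighg2b. The cells with the most had 14 Ighg2c beside 104 Ighg2b UMIs (outside the table), 10 beside 7 (cluster 3), 5 beside 11 (cluster 2) and 4 beside 8 (cluster 3). Ighg2c was above Ighg2b in 7 cells, and in view of the shared stretches of the 2 genes it is not compared between groups.

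The antibody tags of the replicate 1 libraries carried a reading of IgG1 protein on the surface of the same cells. In cluster 3 at least 3 IgG1 tag counts were found on 7 of 14 (50%, exact 95% interval 23.0% to 77.0%) Ighg1-dominant cells of SFB-positive replicate 1 and on 58 of 62 (93.5%, 84.3% to 98.2%) of SFB-negative replicate 1. Ighg2b-dominant cells passed it in 4 of 56 cases in SFB-positive replicate 1 and 1 of 11 in SFB-negative replicate 1, and Ighm-dominant cells in 4 of 53 and 7 of 48 cases of the same libraries. T-like barcodes passed in 9 of 245 (3.67%) cases in SFB-positive replicate 1 and 15 of 223 (6.73%) in SFB-negative replicate 1. The tag was thus high on Ighg1-dominant cells of both libraries, and on Ighg2b-dominant cells it was near the T-like share.

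The tag went up with the number of Ighg1 UMIs. In cluster 3 of SFB-positive replicate 1 the minimum was passed by 4 of 4 cells with 10 or more Ighg1 UMIs, 5 of 14 with 3 to 9, 1 of 5 with 1 to 2 and 10 of 180 (5.56%) with none. In SFB-negative replicate 1 it was passed by 32 of 36, 34 of 40, 4 of 10 and 4 of 62 (6.45%). Each group had 1 tagged library, so the groups were not tested against each other. Over all tags the median on IgG-dominant cluster 3 cells was 14 counts in SFB-positive replicate 1 and 34.5 in SFB-negative replicate 1. On Ighm-dominant cells it was 23 and 34. Tag depth thus differed between the libraries, and its part in the IgG1 tag shares was not tested.

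**Figure D4:**
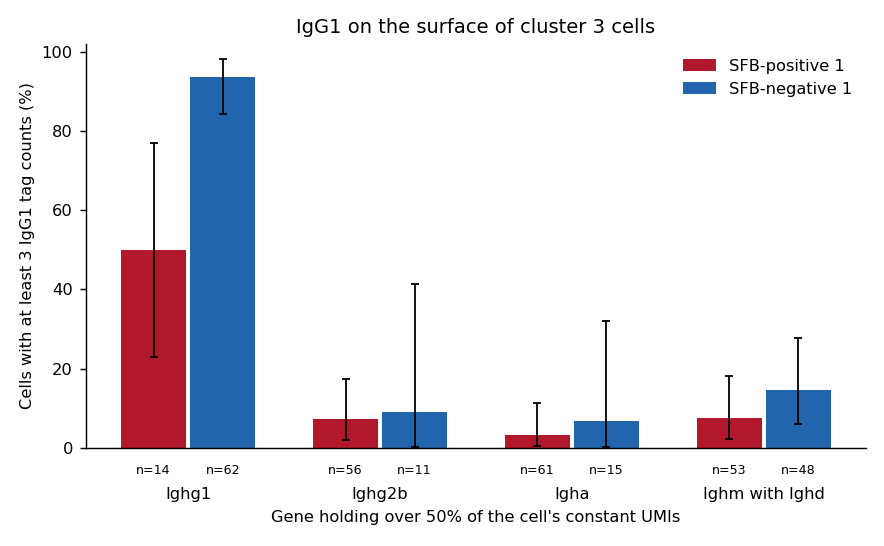
Share of cluster 3 cells with at least 3 IgG1 antibody tag counts (y axis, percent) by the dominant heavy-chain gene of the cell (x axis), in the tagged library of each group; bars end at the share, lines are exact 95% binomial intervals of counting error and n is the number of cells. Ighg1-dominant cells reach 50% in SFB-positive replicate 1 and 93.5% in SFB-negative replicate 1, and the other kinds stay below 15%. Tag depth differed between the libraries.

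Within cluster 3, IgG-dominant cells were set against Ighm-dominant cells of the same libraries, with the library as a term in the model. There were 71 and 252 IgG-dominant cells in SFB-positive and 76 and 368 in SFB-negative libraries, against 53 and 161 and 48 and 157 Ighm-dominant cells. Of 8186 genes other than antibody genes 8.38% passed the test, 256 higher and 430 lower in IgG-dominant cells (3.13% and 5.25%). Constant genes choose these cells and are no finding here. Without SFB-positive replicate 2 the counts were 54 higher and 108 lower, without SFB-negative replicate 2 they were 112 and 226, and the DESeq2 Wald test gave 85 and 174. The edgeR fit takes much of a gene's spread from all genes together, so its smallest p-values do not measure that gene's own spread alone.

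Cd9, a tetraspanin, was at 0, 0.879, 0 and 0.308 CPM in IgG-dominant cells of SFB-positive replicates 1 and 2 and SFB-negative replicates 1 and 2, against 28.8, 14.6, 39.8 and 3.12 CPM in Ighm-dominant cells. It was lower in IgG-dominant cells of every library, with a log2 difference of -4.18 ± 0.50 (adjusted p = 2.70e-07). Dpp4, the surface peptidase CD26, stood at 0, 1.54, 0 and 0.924 CPM in IgG-dominant cells, against 25.2, 23.9, 13.3 and 11.7 CPM in Ighm-dominant cells (log2 difference -3.92 ± 0.41, adjusted p = 1.60e-08). Fcrl5, an Fc receptor-like protein, and Ccr6, the chemokine receptor that draws B cells to the follicle-associated epithelium, also fell, with log2 differences of -3.87 ± 0.40 (adjusted p = 1.60e-08) and -2.74 ± 0.17 (adjusted p = 8.62e-13). Cd38, a surface enzyme that is low on mouse germinal-centre B cells, stood at 15.4, 13.4, 14.1 and 10.2 CPM in IgG-dominant cells, against 130, 81.4, 39.8 and 53.8 CPM in Ighm-dominant cells. The 2 kinds did not overlap, and the log2 difference was -2.51 ± 0.19 (adjusted p = 6.21e-11). The other lower genes with the largest differences were Atp1b1, Plac8, Pml, Cryzl2, S100a10 and Il10ra, with log2 differences between -3.85 and -3.12.

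Among the genes that rose, the largest differences were those of Parm1 (2.21 ± 0.34), Palm (1.79 ± 0.37), which encodes the membrane-attached protein paralemmin, and Eepd1 (1.61 ± 0.16), all on the log2 scale. Tox, a nuclear HMG-box protein, stood at 49.2, 381, 16.9 and 170 CPM in IgG-dominant cells, against 0, 128, 0 and 75.6 CPM in Ighm-dominant cells (log2 difference 1.49 ± 0.16). Slpi, a secreted protease inhibitor, stood at 18.4, 8.79, 19.8 and 44.7 CPM in IgG-dominant cells, against 0, 2.43, 8.84 and 17.9 CPM in Ighm-dominant cells (log2 difference 1.56 ± 0.31). Both were higher in IgG-dominant cells of every library. Cobl, Ccdc175, Cryz, Emp2 and Tmem121 complete the 10 leading genes, with differences between 1.36 and 1.61.

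**Figure D5:**
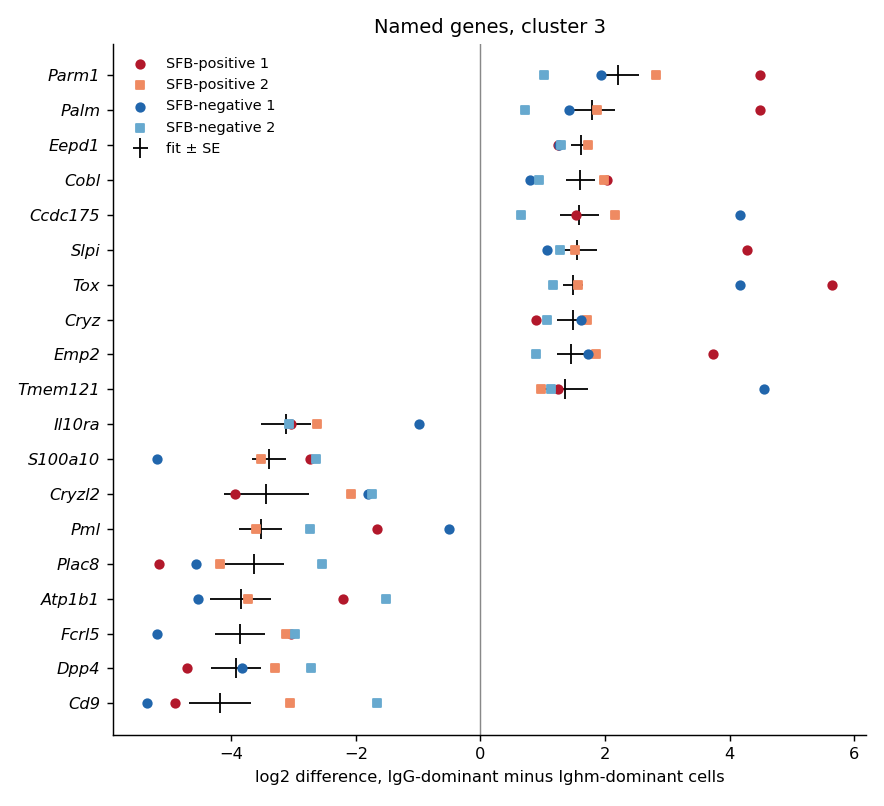
Log2 difference between IgG-dominant and Ighm-dominant cells of cluster 3 (x axis) for the genes named in the text with the largest rises and falls (y axis). Coloured points are the single libraries, from log2 of CPM plus 1, and black lines are the fit with its SE; all points of a gene lie on 1 side of 0, with Cd9 lowest (-4.18) and Parm1 highest (2.21) in the fit.

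Among the switch recombination genes Hmces, which shields abasic sites in DNA, rose by 0.69 ± 0.11 (adjusted p = 3.95e-05), and none of the 18 tested fell. Hmces stood at 842, 480, 838 and 277 CPM in IgG-dominant cells, against 353, 325, 641 and 175 CPM in Ighm-dominant cells, and was higher in IgG-dominant cells of every library. In the list of IgG switch signals 1 of 24 rose, Tgfbr1 (0.58 ± 0.12), a TGF-beta receptor chain. The 9 that fell were Smad3 (-2.31 ± 0.26), a TGF-beta signal carrier, Tgfbr2 (-0.66 ± 0.13), Ifngr2 (-1.33 ± 0.21), the interferon-gamma receptor chain, Il4ra (-0.64 ± 0.18), Il21r (-0.38 ± 0.12), Runx3, Irf4, Nfkb1 and Tnfrsf13b, the APRIL and BAFF receptor TACI. Nfkb1, Ifngr2, Tgfbr2, Irf4, Il4ra and Il21r were not lower in every single library. The list's median log2 difference was -0.26, against 0.01 over all genes tested.

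Over all genes tested in this comparison 3.13% rose and 5.25% fell. In the memory list 1 of 10 tested genes rose, Nt5e (0.56 ± 0.14), the enzyme CD73, and 6 fell, with Nt5e and Klf2 not of 1 sign in every library: Ccr6, Cd38, Fcrl5, Plac8, S1pr1 (-1.63 ± 0.20), an exit receptor, and Klf2 (-1.09 ± 0.15). Txndc5 (0.64 ± 0.14) and Slamf7 (0.42 ± 0.12) rose and Irf4 (-0.86 ± 0.18) fell among 7 tested genes of the plasma program. Fcgr2b, the inhibitory Fc receptor for IgG and the only 1 of its 7-gene list that could be tested, fell by 0.74 ± 0.16 (adjusted p = 0.00163), though not in every library.

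Markers of other B-cell stages moved with these kinds. The summed level of the 6 naive follicular markers without Ighd was 298, 263, 536 and 262 CPM in IgG-dominant cells, against 691, 690, 663 and 661 CPM in Ighm-dominant cells, with at most 1 of the 6 at 0 in a library. The 11 germinal-centre markers summed to 3094, 3795, 2797 and 2628 CPM in IgG-dominant cells, against 1926, 3241, 2807 and 2187 CPM in Ighm-dominant cells, with none at 0. The 10 plasma markers, Slpi among them, summed to 4348, 1411, 3073 and 1621 CPM in IgG-dominant cells, against 1864, 1350, 2312 and 1171 CPM in Ighm-dominant cells, higher in IgG-dominant cells of every library, with at most 4 of the 10 at 0. The 7 memory markers summed to 172, 424, 96.0 and 256 CPM in IgG-dominant cells, against 284, 533, 221 and 339 CPM in Ighm-dominant cells. The 6 activated B-cell markers were likewise lower in IgG-dominant cells of every library. The 6 marginal-zone or innate-like markers summed to 550, 1155, 367 and 536 CPM, against 302, 1028, 451 and 482 CPM. They were lower in IgG-dominant cells of SFB-negative replicate 1 only. The part of naive-like or plasma-like cells in the differences was not tested.

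The protein tags of CD38 gave a smaller contrast in the same cells. The median CD38 tag count was 3 on IgG-dominant and 9 on Ighm-dominant cells of SFB-positive replicate 1, and 5 and 6.5 on those of SFB-negative replicate 1. The median over all tags together was 14 and 23 counts in SFB-positive replicate 1, and 34.5 and 34 in SFB-negative replicate 1. The CD26 tag recorded no count in any of these cells. The CD196 tag, for the Ccr6 protein, reached 3 counts on 5 of 71 IgG-dominant and 4 of 53 Ighm-dominant cells of SFB-positive replicate 1. In SFB-negative replicate 1 it did so on 5 of 76 and 6 of 48 cells. The IgM tag did so on 2 of 53 and 3 of 48 Ighm-dominant cells of those libraries. The IgD tag did so on 18 of 71 IgG-dominant and 29 of 53 Ighm-dominant cells of SFB-positive replicate 1. In SFB-negative replicate 1 the IgD shares were 41 of 76 and 25 of 48.

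In cluster 4 the same comparison could be made only in the SFB-positive libraries, with 10 and 36 IgG-dominant and 127 and 375 Ighm-dominant cells. Of 6026 genes 0.962% passed the test, 35 higher and 23 lower in IgG-dominant cells. The fit takes a gene's spread almost wholly from all genes together, so its very small p-values do not measure that gene's own spread. Fscn1, the actin bundler fascin, stood at 177 and 38.4 CPM in IgG-dominant cells, against 5.78 and 1.77 CPM in Ighm-dominant cells (log2 difference 4.34 ± 0.32, adjusted p = 2.24e-15). Cd80, a costimulatory ligand and memory marker, rose by 2.18 ± 0.40 (adjusted p = 1.68e-05), and Nt5e by 2.01 ± 0.41 (adjusted p = 2.76e-04); these were 2 of the 11 memory genes tested. Sh2d1b1, Pole2, Myo1f, Fgl2, Adssl1, Slamf1, Dkk3 and Pla2g7 rose by 2.12 to 3.70. In SFB-positive replicate 1 Cd80, Pole2, Slamf1, Dkk3 and Pla2g7 each stood at 29.4 CPM in IgG-dominant cells. That is the level of a single UMI in that sum, so these rises rest mostly on SFB-positive replicate 2.

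Among the genes that fell in cluster 4 was Cr2, the complement receptor CD21, at 0 and 16.4 CPM in IgG-dominant cells, against 66.5 and 146 CPM in Ighm-dominant cells (log2 difference -3.26 ± 0.57, adjusted p = 3.87e-06). Plk2, Wls, Ifi214, Tsc22d1, Ms4a4c, Tmem108, Gadd45a, Treml2 and Rgs10 also fell, with log2 differences between -4.44 and -1.80. In the DESeq2 Wald test only 2 genes were called higher and 1 lower, and the values rest on 10 IgG-dominant cells in SFB-positive replicate 1.

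Ighg1-dominant and Ighg2b-dominant cells of cluster 3 differed in few genes. Of 5249 genes 0.381% passed the test, 11 higher and 9 lower in Ighg1-dominant cells. Here too the fit takes a gene's spread almost wholly from all genes together, so small p-values do not measure that gene's own spread. Slpi was highest, at 96.9, 20.2, 24.8 and 48.8 CPM in Ighg1-dominant cells, against 0, 6.19, 0 and 11.7 CPM in Ighg2b-dominant cells (log2 difference 2.19 ± 0.44, adjusted p = 4.61e-04). It was higher in the Ighg1-dominant cells of all 4 libraries, on 6 Slpi UMIs in those of SFB-positive replicate 1. The 0 of SFB-negative replicate 1 rests on 11 Ighg2b-dominant cells with 56050 UMIs. The 10 plasma markers, Slpi among them, summed to 7173, 1453, 3098 and 1648 CPM in Ighg1-dominant cells. In Ighg2b-dominant cells they summed to 3656, 1386, 3033 and 1501 CPM. The part of plasma-like cells in the Slpi difference was not tested. Ube2c and Cenpa, which act in cell division, rose by 0.64 ± 0.12 and 0.50 ± 0.13, and Bfsp2 and Pafah1b3 by 0.56 ± 0.13 and 0.53 ± 0.12.

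Ly6d, a B-lineage surface protein, stood at 0, 21.4, 53.1 and 50.8 CPM in Ighg1-dominant cells, against 57.4, 79.95, 178 and 50.8 CPM in Ighg2b-dominant cells (log2 difference -1.18 ± 0.24, adjusted p = 6.43e-04). Fcer2a, the low-affinity IgE receptor CD23, fell by 0.67 ± 0.18 (adjusted p = 0.0432). Srm, Pole2 and Rel fell by 1.10 ± 0.27, 1.04 ± 0.26 and 0.46 ± 0.12. No gene of the lists of switch signals (20 tested), switch recombination (12), plasma program (6), memory (4) or IgG Fc receptors (1) passed the test, and neither did any gene in the DESeq2 Wald test, against 311 genes at an unadjusted p under 0.05 in edgeR. Leaving out the deep SFB-positive replicate 2 left 2 higher and 1 lower genes.

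By SFB group few list genes were called, in fits that called few genes. In cluster 3 with the replicate block, where 1.35% of all genes were called, 1 of 25 switch signal genes rose, Id2 (1.72 on the log2 scale), an inhibitor of E-protein transcription factors, and none fell; none of 18 switch recombination, 9 plasma program, 12 memory and 2 Fc receptor genes was called. In cluster 4, where 1.53% of all genes were called, no list gene was. Without the block no list gene was called in either cluster, in fits that called no gene at all.

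The genes most like each IgG gene were taken by their level, log2 of CPM plus 1, over the 27 sums of a cluster in a library, with antibody genes listed apart. Slpi was closest to Ighg1 (Pearson r = 0.88, and 0.80 over the 23 sums without cluster 6), followed by Prdx4, Kcnn4, Prg3 and Cyb561, and of the antibody genes Jchain was closest (0.87, and 0.86 without cluster 6). Spn (0.84, and 0.61 without cluster 6), Tmem52, Prg3, Klrb1 and Tspan15 were closest to Ighg2b. Ica1 (0.91, and 0.75 without cluster 6), Sema3d, Smoc1, Gm32569 and Gm48370 were closest to Ighg3. The sums share libraries, depth and clusters, so these values describe likeness and carry no p.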

How the data were processed

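UMI counts per gene and barcode were deposited by the authors without normalization. The submitters' processing notes name Cell Ranger 5.0.1 and mm10, while the file headers give 6.0.0 for replicate 1 and 7.0.0 for replicate 2. How introns and doublets were handled is not given in the sources used here. A deposited cell table gives each cell's library code (other), cluster, counts per cell, percent of mitochondrial UMIs and layout coordinates, a score without unit; only code and cluster were used. No doublets were removed here.

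Counts were summed per library and cluster, or per kind of cell, and tested in R 4.3.3 with edgeR 4.0.16 (quasi-likelihood, robust, TMM, filterByExpr, Benjamini-Hochberg over all genes tested, limit 0.05). SFB groups were compared without the replicate number and, beside it, with it as a block. Same-numbered libraries deviated together, with r = 0.88 over genes in all table cells, 0.76 in cluster 3 and 0.73 in cluster 4. The 2 pairs mirror each other, since deviations were taken from the mean of 2 libraries. Depth, which follows the number, was not taken out of these r values. Alternatives used DESeq2 1.42.0 size factors and Wald test, no filter, each library left out, top cells left out, thinning and stricter minimums. The fits were tested on simulated data drawn with the same spread for every gene. Those data cannot show how the block fit treats a gene's own spread. Kinds of cell were compared where a library had at least 10 cells of each. Named genes were the 10 highest and 10 lowest past the limit with 1 sign in all libraries, list genes past it, and the 5 genes most like each IgG gene. T-like barcodes lie outside the table, with under 10% mitochondrial UMIs, at least 3 UMIs over 6 T-cell genes and none of 4 B-cell genes. Intervals are exact (Clopper-Pearson, 95%), limits for a count of 0 are 3 counts, and both cover counting error only. Gene and list choices were made with earlier results of these data known. Reading the antibody tags by dominant gene and leaving out the top cell with the block were added after the data were examined. Some genes that these rules name are not reported here.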

Additional observations from a re-analysis of the deposited data

Results flagged for a closer look

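Barcodes outside the authors' table that were not T-like, which no comparison above uses, held Ighg2b at 7272 and 230 CPM in SFB-positive libraries, above the 14.4 and 19.4 CPM of the SFB-negative libraries. In SFB-positive replicate 1 this came to 4711 UMIs in 378 barcodes, of which 7 held at least 100 and 1 held 1351; in SFB-positive replicate 2 it came to 3971 UMIs in 1987 barcodes, of which 5 held at least 100. The table held 70.3% and 95.9% of all IgG UMIs in SFB-positive libraries, and 90.6% and 75.8% in SFB-negative libraries, so IgG-rich barcodes were left out of it most in SFB-positive replicate 1.

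The IgG1 antibody tag, a protein reading outside the RNA counts, was at 3 or more counts on 50% of Ighg1-dominant cluster 3 cells of SFB-positive replicate 1 and on 93.5% of those of SFB-negative replicate 1, above the interval of the Ighm-dominant cells of the same library. Tag depth differed between these libraries, so their shares are not compared.

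The share of IgG-dominant cells moved in opposite directions in clusters 3 and 4. SFB-positive minus SFB-negative was -23.7 percentage points in cluster 3 (-15.8 and -31.6 within replicate numbers) and 3.51 in cluster 4 (2.54 and 4.49). The difference between the clusters was not tested.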

How the results depend on the processing

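Libraries of the same replicate number deviated together (r between same-numbered deviations 0.88, 0.76 and 0.73). The 2 pairs mirror each other, and depth, which follows the number, was not taken out. With the replicate block, calls went to 443, 133 and 130 genes in the table, cluster 3 and cluster 4, against 0 in each without it. With the block the SFB log2 difference became 5.08 for Ighg2b and 2.54 for Ighg3 in the table, -1.80 for Ighg1 and 2.64 for Ighg2b in cluster 3, and -1.94 for Ighg1, 2.15 for Ighg2b and 1.73 for Ighg3 in cluster 4, all past the limit. With the block and without the top cell of the gene, chosen after seeing the data, it was -1.83, 5.82 and 3.59 for Ighg1, Ighg2b and Ighg3 in the table, -2.96 and 2.26 for Ighg1 and Ighg2b in cluster 3, and -2.45 and 2.33 in cluster 4. Table Ighg2b also passed without the block with no filter (5.12) and in DESeq2 (5.14).

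Leaving out 1 library, with a lone library assumed to vary like the others, gave ranges without the block of -0.68 to 0.23 for Ighg1, 4.85 to 5.36 for Ighg2b and -0.52 to 4.04 for Ighg3 in the table. The table Ighg1 value turned positive without SFB-positive replicate 2 (0.23) or SFB-negative replicate 2 (0.03). In cluster 3 the ranges were -3.62 to -0.22, 1.07 to 4.27 and -0.96 to 3.20, and in cluster 4 they were -2.06 to -1.90, 1.58 to 2.73 and 1.27 to 9.77.

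For IgG-dominant against Ighm-dominant cells in cluster 3, DESeq2 gave 85 higher and 174 lower genes, and leaving out a library gave 54 to 373 and 108 to 530. In cluster 4, DESeq2 size factors gave 60 and 79, no filter 32 and 42, and DESeq2 2 and 1. For Ighg1-dominant against Ighg2b-dominant cells, no filter gave 5 and 4, DESeq2 0 and 0, the stricter minimum 0 and 1 (2 libraries only), and leaving out a library 2 to 12 and 1 to 11.

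SFB differences in percent of cells with a UMI shrank with fewer UMIs. At 500 and 1000 UMIs they were -22.4 and -34.8 for Ighg1 and 13.2 and 19.0 for Ighg2b in cluster 3, and -0.945 and -1.51 for Ighg1 and 6.71 and 8.50 for Ighg2b in cluster 4. At 2 or more UMIs they were 35.6 for Ighg2b in cluster 3, and -2.28 and 12.5 for Ighg1 and Ighg2b in cluster 4. Leaving out a library gave -64.7 to -47.4 and 37.0 to 46.9 for Ighg1 and Ighg2b and 0.00618 to 6.19 for Ighg3 in cluster 3, and -9.02 to -2.90, 19.9 to 29.1 and -0.0422 to 6.98 in cluster 4. In percent of IgG UMIs, Ighg2b in cluster 3 was 52.1 without the cell of most constant UMIs, Ighg1 in cluster 4 was -30.8 at 1000 UMIs, and Ighg3 in cluster 4 reversed to -0.531 at 1000 UMIs and -1.20 without that cell. Leaving out a library gave -69.1 to -53.8, 54.0 to 66.5 and -0.486 to 2.38 for Ighg1, Ighg2b and Ighg3 in cluster 3, and -33.7 to -32.0, 14.4 to 37.4 and -4.48 to 18.1 in cluster 4; Ighg3 in cluster 4 was also -1.60 without SFB-positive replicate 2. At 500 UMIs the Ighg2b-dominant difference was 13.3 (17.9 to 23.1 leaving out a library), Ighg1 cells with Ighg2b averaged 4.24% (26.6 to 45.8) and Ighg3 cells with Ighm 66.7% (83.3 to 91.7). The causes were not tested, beyond the fewer UMIs, cells or libraries each setting keeps. Depth limits Ighg3 and Ighg2c most.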
